A study of Mus musculus with 2 samples.

Results

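Interferon-stimulated antiviral genes were followed by RNA sequencing in sorted cells of ALL211, a T-cell leukemia (T-ALL) that arose in a mouse. The set holds 49 genes named by symbol, and all 49 were found among the 27179 genes of the count table. The set and its grouping by role were chosen with earlier results of these data known. The Dox group (1 library) came from leukemic recipient mice given doxycycline (Dox) for 3 days, and its cells were sorted from the spleen as GFP-mid. The untreated group (1 library) came from recipients without Dox, and its cells were sorted from the spleen as GFP-high. Cells of both groups carry Vav-tTA and TRE-GFP-shIkaros: a tetracycline-controlled transactivator under the blood-lineage Vav promoter drives a hairpin against Ikaros (gene Ikzf1) linked to GFP, and Dox shuts both off. The comparison asks how these cells differ once Ikaros, a DNA-binding regulator of lymphocyte development, can return. Both groups stem from 1 primary leukemia. The series design mentions 2 mice for each group, and whether their RNA was pooled into the 1 library is not stated. The labels give both libraries the same batch date.

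Type I interferons signal through the receptor chains Ifnar1 and Ifnar2, and type II interferon through Ifngr1 and Ifngr2. At the type I receptor the kinases Jak1 and Tyk2 activate Stat2, which with Irf9 belongs to the complex ISGF3. ISGF3 binds a DNA element called the ISRE in the promoters of antiviral genes. Their products sense foreign nucleic acid, degrade or edit RNA, block translation of viral messages and tag proteins with the ubiquitin-like modifier Isg15.

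The Dox library held 16484613 counts and the untreated library 16960042 counts. Levels are CPM, the deposited counts scaled to library size with TMM factors. A gene is called Dox-high where its log2 fold (Dox over untreated, with a prior count of 2 added) is 1 or more, which is 2-fold, and Dox-low where it is -1 or less. With 1 library per group there is no replicate check and no test, and treatment, sorting gate and mouse cannot be told apart. Each ratio of Dox to untreated carries a 95% interval (exact Clopper-Pearson bounds) that covers counting error only. Even counts outnumbered odd ones at low values: of genes with 3 to 10 counts, 63.1% had an even count in the Dox library and 62.0% in the untreated library. Whether both reads of a pair were counted was not tested, but the intervals would then be too narrow. Ikzf1 itself was at 1229 CPM in the Dox library and 120.5 CPM in the untreated library. The listed T-cell markers were present in both libraries. All 12 passed 1 CPM in each, and the most abundant in the Dox library were Thy1 and Ptprc, of which Ptprc is not confined to T cells. The summed level of the 12 was 10399 CPM in the Dox library and 7512 CPM in the untreated library. Thy1 and Lck were lower in the Dox library (log2 folds -0.16 and -0.10), and the other 10 were higher.

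The promoters are shown first, because the ISRE is the element that ISGF3 binds. The 160 bases before an annotated start of 8 members are given below, 5′ to 3′ on the gene's strand, from RefSeq (GRCm38.p6). Where a gene had several windows, 1 is shown. For Ifit3, Ifnar1 and Oasl1 the start used lies inside the gene's annotated span, after its first base. Capitals mark ISRE matches on either strand, searched as GAAA, 2 bases of any kind, and GAAA. Ifit1 (chr19:34640729-34640888, plus strand), Ifit3 (chr19:34583369-34583528, plus strand), Rsad2 (chr12:26456453-26456612, minus strand) and Isg15 (chr4:156200819-156200978, minus strand) are shown as members far higher in the Dox library with at least 1 match. Bst2 (chr8:71537473-71537632, minus strand) is shown as a member with matches and almost equal levels. Oasl1 (chr5:114923080-114923239, plus strand) is shown as a member far higher with no match. The receptor genes Ifnar1 (chr16:91485055-91485214, plus strand) and Ifngr2 (chr16:91546899-91547058, plus strand) are shown as members of a different promoter type, rich in G and C.
Ifit1: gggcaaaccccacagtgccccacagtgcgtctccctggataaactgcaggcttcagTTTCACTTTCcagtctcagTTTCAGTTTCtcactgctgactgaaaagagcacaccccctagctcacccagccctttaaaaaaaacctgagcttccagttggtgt
Ifit3: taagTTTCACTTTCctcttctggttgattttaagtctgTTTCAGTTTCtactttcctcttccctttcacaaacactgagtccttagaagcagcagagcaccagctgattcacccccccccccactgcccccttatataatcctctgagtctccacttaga
Rsad2: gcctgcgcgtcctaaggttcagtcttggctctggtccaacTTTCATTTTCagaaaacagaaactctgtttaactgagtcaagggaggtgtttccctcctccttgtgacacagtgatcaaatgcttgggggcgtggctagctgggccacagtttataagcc
Isg15: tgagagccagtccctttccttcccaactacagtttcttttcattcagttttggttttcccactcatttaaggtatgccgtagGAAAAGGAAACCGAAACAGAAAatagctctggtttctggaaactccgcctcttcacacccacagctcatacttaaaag
Bst2: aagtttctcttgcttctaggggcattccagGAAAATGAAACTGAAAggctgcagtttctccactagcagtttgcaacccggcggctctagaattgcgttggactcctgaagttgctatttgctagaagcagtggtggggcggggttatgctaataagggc
Oasl1: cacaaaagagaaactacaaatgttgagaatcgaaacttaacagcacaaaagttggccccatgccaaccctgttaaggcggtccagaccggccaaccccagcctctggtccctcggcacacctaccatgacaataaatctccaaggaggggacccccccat
Ifnar1: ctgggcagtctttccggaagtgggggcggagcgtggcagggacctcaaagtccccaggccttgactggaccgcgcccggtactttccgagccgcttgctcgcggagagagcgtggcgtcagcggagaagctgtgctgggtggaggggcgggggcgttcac
Ifngr2: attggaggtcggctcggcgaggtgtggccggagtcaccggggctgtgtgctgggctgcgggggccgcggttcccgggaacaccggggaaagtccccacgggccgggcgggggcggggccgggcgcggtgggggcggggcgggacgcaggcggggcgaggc

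RefSeq promoter windows of 300 bases (250 before the start to 50 after it) were matched for 37 members, and 12 had none in the table used. These ISRE letters stood in the window of 14 of these 37 members (37.8%), against 3.88% of the 9305 tested genes with a window. Among the other interferon pathway genes tested, 25 of 74 (33.8%) held them. The letters of the GAS element, TTCNNNGAA, which STAT dimers bind, stood in 9 of 37 member windows (24.3%), against 8.12% of tested genes. The Ikaros core letters TGGGAA stood in 12 of 37 (32.4%), against 26.1% of tested genes. Both strands were searched. ISRE matches overlapped one another in 4 members (Bst2, Isg15, Oas1a and Trim21), overlapped a GAS match in Bst2 and overlapped no Ikaros core match in any of the 37. Isg15 held 3 ISRE matches and, 105 and 141 bases before its start, 2 Ikaros core matches. A match is a description of letters, not a site of binding.

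**Figure D1:**
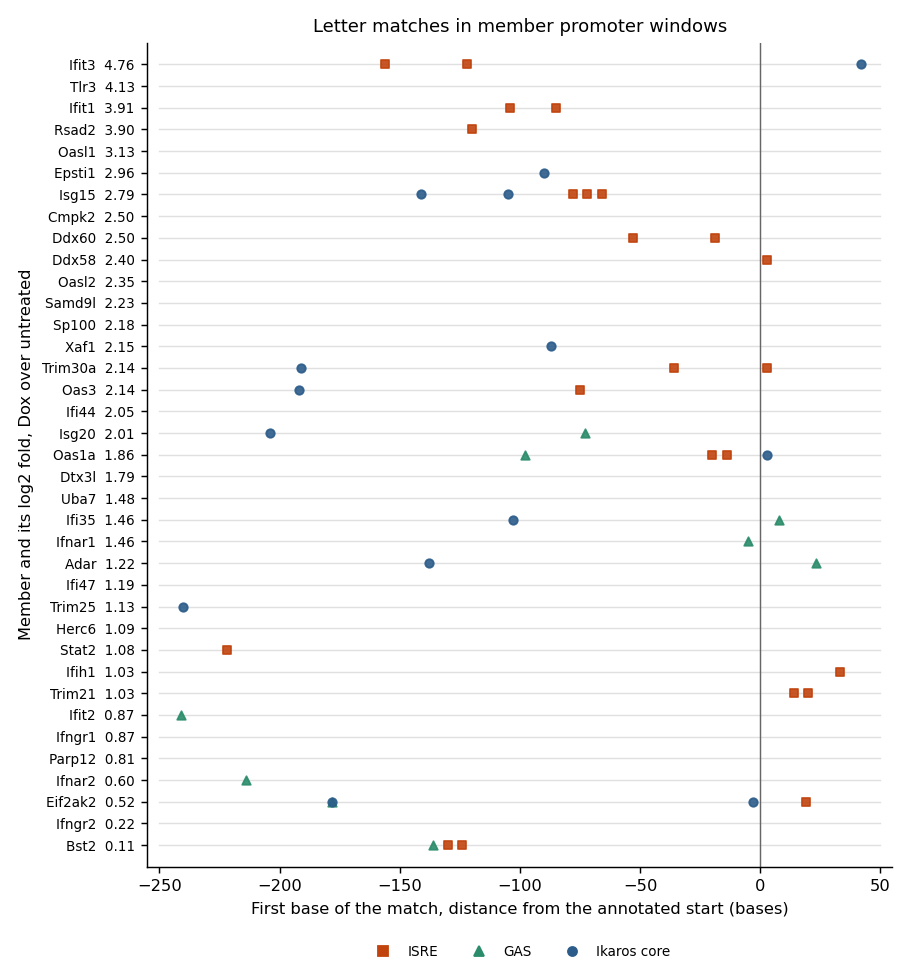
Letter matches to ISRE, GAS and Ikaros core in the promoter windows of 37 members, ordered from the highest to the lowest log2 fold (Dox over untreated, printed beside each symbol). The horizontal axis is the distance in bases of the match's first base from the annotated start. ISRE matches appear both in Ifit3 at the top (4.76) and in Bst2 at the bottom (0.11).

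Across the set, 39 of 49 members were Dox-high and 0 Dox-low. Of the 12125 genes that reached 1 CPM in either library, 13.6% were Dox-high and 13.0% Dox-low. The median log2 fold of the members was 2.01, and that of all genes -0.01. At least 4-fold, 25 members were higher, against 4.46% of all genes. The counting interval lay wholly above 2-fold for 35 members, against 9.11% of all genes, and for 34 when every count was halved. All 49 members passed the level filter, but Tlr3, Tlr7 and Ifi44 passed it through the Dox library alone. Limited to genes with at least 1 CPM in the untreated library, 36 of 46 members were Dox-high, against 9.67% of all such genes. Ratios and CPM have no prior count. The 49 genes summed to 8233 CPM in the Dox library and 2496 CPM in the untreated library, and took 0.818% of all counts in the Dox library and 0.251% in the untreated library.

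**Figure D2:**
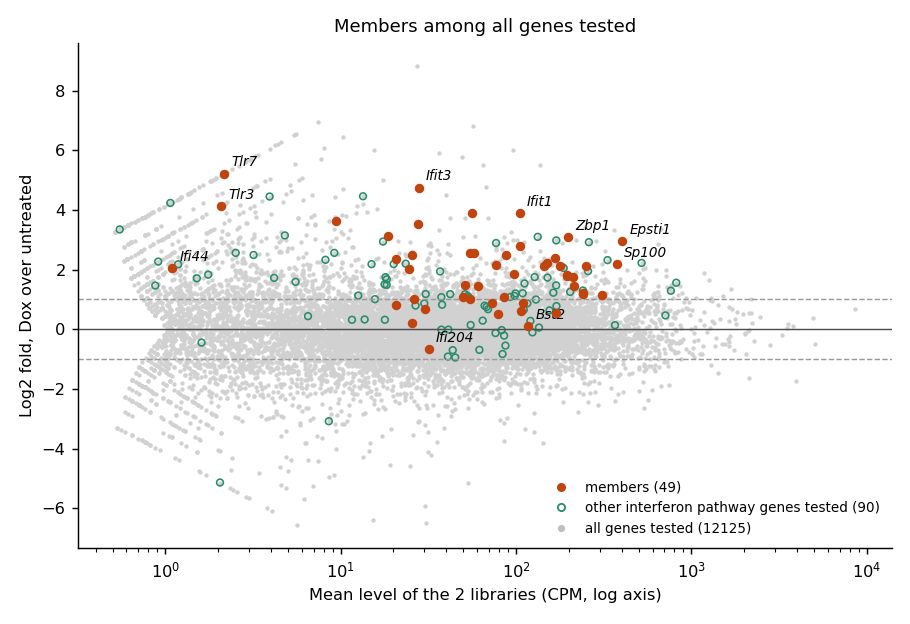
Log2 fold (Dox over untreated) against the mean level of the 2 libraries (CPM, log axis) for the 49 members, the 90 other interferon pathway genes tested and all 12125 genes tested; dashed lines mark 2-fold. Most members lie above the upper line, Bst2 lies near 0, and Ifi204 (-0.66) lies between 0 and the lower line.

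Of the 14 members with an ISRE match, 12 were Dox-high, with a median log2 fold of 2.14. Of the 23 with a window and no match, 18 were Dox-high, with a median of 1.48. The 12 members without a window had a median of 2.34, and 9 were Dox-high. The ranges overlapped almost fully, reaching 4.76 with a match and 4.13 without one. The GAS letters split the members the other way: 5 of 9 with a match were Dox-high, with a median of 1.22, and 25 of 28 without one, with a median of 2.14. For the Ikaros core letters, 11 of 12 with a match were Dox-high, with a median of 2.07, and 19 of 25 without one, with a median of 1.48. Over all tested genes 13.6% were Dox-high, and the members were chosen with earlier results of these data known. Whether any of these letters bear on the folds was not tested.

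The receptors and Stat2 had the lowest median log2 fold of the 7 roles, 0.87. Of the 5 genes, 2 were Dox-high, against 13.6% of all tested genes. Ifnar1, the first chain of the type I receptor, was at 314.7 CPM in the Dox library and 114.4 CPM in the untreated library, 2.75-fold higher (interval 2.61 to 2.90). Its partner Ifnar2 was at 129.4 and 85.2 CPM in the Dox and untreated library, 1.52-fold higher. For type II interferon, the ligand-binding chain Ifngr1 was at 142.1 CPM in the Dox library and 78.0 CPM in the untreated library. The second chain Ifngr2 was at 27.6 and 23.7 CPM, Dox and untreated, with an interval of the ratio of 1.02 to 1.33. Only Ifnar1 among the 4 chains was thus Dox-high. Stat2, the ISGF3 subunit, was at 67.7 CPM in the Dox library and 32.0 CPM in the untreated library, and its interval of 1.91 to 2.35 reached below 2-fold. Ifnar2, Ifnar1 and Ifngr2 lie in 1 stretch of chromosome 16 (GRCm38, 91372783 to 91564007), where their log2 folds were 0.60, 1.46 and 0.22.

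**Figure D3:**
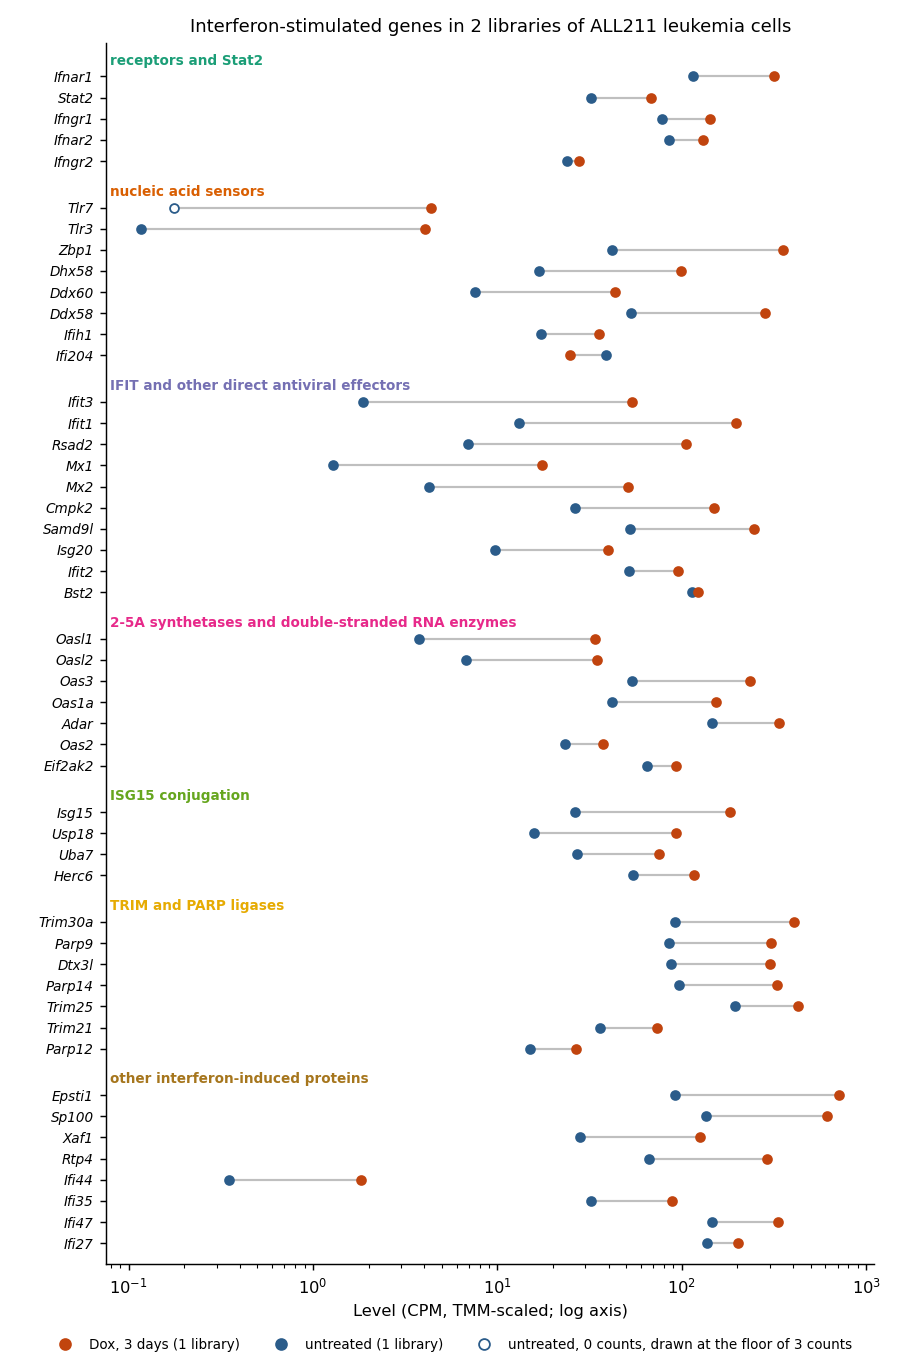
Level of each of the 49 members in the Dox library (orange) and the untreated library (blue), in CPM on a log axis, grouped by role. The Dox point lies right of the untreated point for 48 members and left of it for Ifi204. Tlr7, with 0 counts in the untreated library, is drawn there at the floor of 3 counts.

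Of the 8 nucleic acid sensors, 7 were Dox-high, against 13.6% of all tested genes. Tlr3 and Tlr7 passed the level filter through the Dox library alone. Zbp1, a sensor of Z-form nucleic acid that can start necroptosis, was at 355.5 CPM in the Dox library and 41.8 CPM in the untreated library, 8.50-fold higher (7.86 to 9.20). Ddx58, which encodes the RNA sensor RIG-I, was at 281.7 and 53.1 CPM in the Dox and untreated library. Dhx58, which encodes the RIG-I relative LGP2, was 5.90-fold higher, at 98.5 CPM in the Dox library and 16.7 CPM in the untreated library. The third helicase of that family, Ifih1 (MDA5), differed less, at 35.4 CPM in the Dox library and 17.3 CPM in the untreated library, with an interval of 1.78 to 2.37. The 3 RIG-I-like receptors thus had log2 folds of 2.40, 2.55 and 1.03. Ddx60, a helicase linked to RIG-I signalling, was at 43.4 and 7.56 CPM in the Dox and untreated library.

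The endosomal RNA sensors had almost no counts in the untreated library. Tlr7 had 71 counts in the Dox library and 0 in the untreated library. With 3 counts as the floor of a library in place of 0, it was 24.7-fold higher. The counting interval of its ratio had a lower end of 19.5, or 9.52 with counts halved. Tlr3 had 66 counts in the Dox library and 2 in the untreated library, so the ratio of 34.4 has a wide interval, 9.15 to 289.9. Both genes are known from dendritic cells and macrophages. The summed markers of these cells were higher in the same library (values are given with the marker lists). Of the tested markers, all 6 conventional dendritic and 10 of 20 macrophage and monocyte genes passed the level filter through the Dox library alone. Whether such cells gave the Tlr3 and Tlr7 counts was not tested. Ifi204, a DNA sensor of the Ifi200 family, was the 1 member lower in the Dox library, at 24.7 CPM there and 39.0 CPM in the untreated library (ratio 0.633, interval 0.558 to 0.718).

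Direct antiviral effectors had the highest median log2 fold of the 7 roles, 3.02, although the sensor genes Tlr7 (5.22) and Tlr3 (4.13) were among the 3 members with the highest log2 folds. Of the effectors, 8 of 10 were Dox-high, against 13.6% of all tested genes. All 8 were higher by 4-fold or more, against 4.46% of all tested genes. Among them Isg20 lay close to 4-fold, with an interval of the ratio of 3.43 to 4.85. The log2 fold of Isg20 was 1.99, below 4-fold, with total-count scaling, with DESeq2 scaling and with a prior count of 5. Ifit1, which binds viral RNA lacking a host-type cap, was at 196.6 CPM in the Dox library and 13.0 CPM in the untreated library. Ifit3, its partner, had 880 counts in the Dox library and 32 in the untreated library, 28.7-fold higher (20.2 to 42.2). Ifit2, of the same family, was at 94.9 and 51.9 CPM, Dox and untreated, only 1.83-fold higher. Ifit2 and Ifit3 are 6.58 kb apart on chromosome 19, and the intervals of their ratios do not overlap. In the promoter sequences above, Ifit1 and Ifit3 each hold 2 ISRE matches, and none was found in the windows of Ifit2. Whether the matches bear on these folds was not tested.

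Rsad2 encodes viperin, an enzyme that makes a chain-terminating nucleotide, and Cmpk2, its neighbour on chromosome 12 (26442743 to 26479837), encodes a nucleotide kinase. Rsad2 was at 104.6 CPM in the Dox library and 6.91 CPM in the untreated library, 15.1-fold higher, and Cmpk2 was at 149.5 and 26.2 CPM, 5.70-fold higher. Mx1 and Mx2, dynamin-like GTPases that RefSeq annotates as transcribed pseudogenes in the reference genome, were 13.5-fold and 11.9-fold higher, with 285 and 832 counts in the Dox library and 22 and 73 in the untreated library. Samd9l, a restriction factor of poxviruses, was at 246.3 CPM in the Dox library and 52.5 CPM in the untreated library. Isg20, an RNA exonuclease, was at 39.6 and 9.72 CPM in the Dox and untreated library. Bst2, or tetherin, which holds budding virions at the cell surface, was at 121.6 CPM in the Dox library and 112.8 CPM in the untreated library, a ratio of 1.08. Bst2 had 2 ISRE matches in its promoter window, and whether they bear on its levels was not tested.

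The 2-5A synthetases make the messenger that activates RNase L. Oas3 was at 235.2 CPM in the Dox library and 53.4 CPM in the untreated library, 4.40-fold higher. Oas2, 3.21 kb from it on chromosome 5, was at 37.6 and 23.1 CPM, Dox and untreated, 1.62-fold higher. Oas1a was at 152.3 CPM in the Dox library and 41.8 CPM in the untreated library. The synthetase-like genes Oasl1 and Oasl2 were 8.97-fold and 5.18-fold higher, with 551 and 571 counts in the Dox library and 64 and 115 in the untreated library. Oasl1 is known in mice as a translational repressor of Irf7. Of the enzymes that act on double-stranded RNA, the editor Adar was at 337.5 CPM in the Dox library and 144.8 CPM in the untreated library, 2.33-fold higher. The translation-blocking kinase PKR, gene Eif2ak2, was at 93.2 CPM in the Dox library and 65.0 CPM in the untreated library, below 2-fold.

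All 4 genes of ISG15 conjugation were Dox-high, against 13.6% of all tested genes, and the interval lay wholly above 2-fold for 3 of them. Isg15, the modifier, was at 183.2 CPM in the Dox library and 26.3 CPM in the untreated library, 6.96-fold higher (6.30 to 7.71). Usp18, the protease that removes Isg15 and restrains the type I receptor, was at 93.0 and 15.8 CPM in the Dox and untreated library, 5.90-fold higher. The activating enzyme Uba7 was 2.79-fold higher, at 75.5 CPM in the Dox library and 27.0 CPM in the untreated library. Herc6, which serves in mice as the Isg15 ligase, was at 116.6 and 54.6 CPM, Dox and untreated, with an interval of 1.97 to 2.31. Modifier and protease thus had higher folds than the activating enzyme and ligase, with intervals that do not overlap.

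Among the TRIM and PARP genes, 6 of 7 were Dox-high, against 13.6% of all tested genes. Parp9, an ADP-ribosyltransferase family member, and its ubiquitin ligase partner Dtx3l share an edge on chromosome 16, where their annotated spans overlap by 558 bases. Parp9 was at 304.6 CPM in the Dox library and 85.4 CPM in the untreated library, and Dtx3l at 301.9 and 87.3 CPM. Nearby Parp14, another family member, was at 327.8 and 96.7 CPM, Dox and untreated. The 3 ratios lay together at 3.57, 3.46 and 3.39, with overlapping intervals for neighbouring values. Parp12, on chromosome 6, was at 26.6 CPM in the Dox library and 15.1 CPM in the untreated library. Trim30a, a mouse regulator of innate signalling, was 4.40-fold higher, at 406.0 CPM in the Dox library and 92.2 CPM in the untreated library. Trim25, the ligase that activates RIG-I, was at 426.6 and 194.2 CPM, and Trim21, a cytosolic antibody receptor, at 73.2 and 35.9 CPM, Dox and untreated.

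Of the 8 other interferon-induced genes, 7 were Dox-high, against 13.6% of all tested genes, but Ifi44 passed the level filter through the Dox library alone. Epsti1 was at 713.2 CPM in the Dox library and 91.5 CPM in the untreated library, 7.79-fold higher (7.39 to 8.22). Sp100, a component of nuclear bodies, was at 615.7 and 135.4 CPM, and Rtp4, a receptor transporter protein, at 290.8 and 66.7 CPM, Dox and untreated. The pro-apoptotic factor gene Xaf1 was 4.45-fold higher, at 125.2 CPM in the Dox library and 28.1 CPM in the untreated library. Ifi35 was at 88.9 and 32.2 CPM, and the GTPase gene Ifi47 at 333.0 and 146.3 CPM, Dox and untreated. Ifi27, a mitochondrial protein gene, was below 2-fold, at 201.1 CPM in the Dox library and 137.4 CPM in the untreated library. Ifi44 rested on 30 counts in the Dox library and 6 in the untreated library, with an interval of 2.13 to 15.3, or 1.47 to 28.1 with counts halved.

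**Figure D4:**
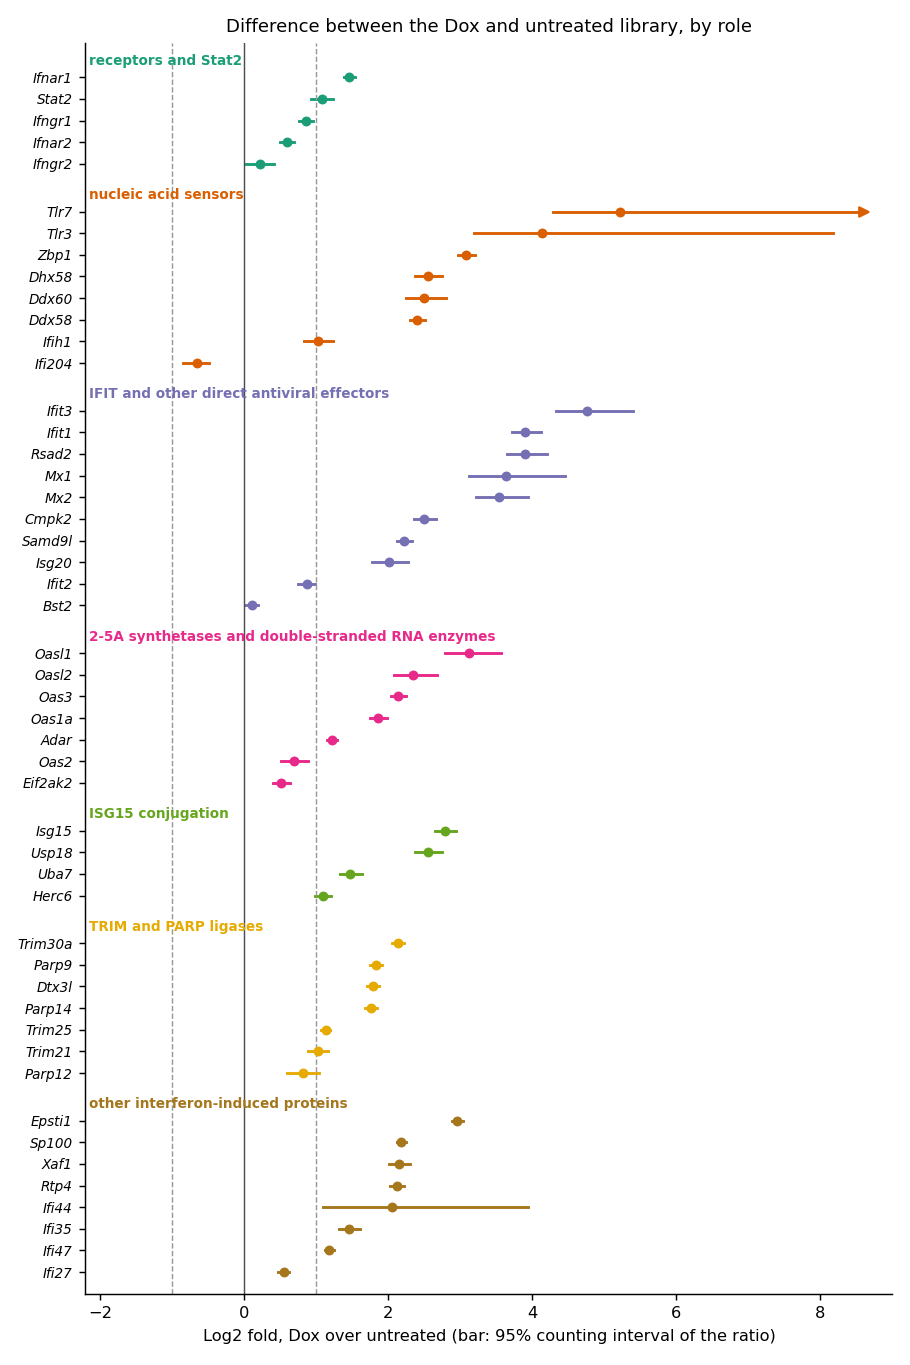
Log2 fold of each member (point, Dox over untreated, prior count of 2) with the 95% counting interval of the plain ratio (bar), grouped by role; dashed lines mark 2-fold in either direction. The values run from -0.66 for Ifi204 to 5.22 for Tlr7, whose interval has no upper end.

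Levels between genes were compared per length, as CPM per kilobase of the deposited gene length. In the Dox library Epsti1 stood highest at 307.1, followed by Sp100 at 285.3 and Isg15 at 242.3. In the untreated library Bst2 stood highest at 146.7, followed by Ifi27 at 130.5 and Ifi47 at 87.4. Bst2 was 8th in the Dox library, so the order of the members differed between the libraries. The lowest member was Ifi44 in the Dox library, at 0.630, and Tlr7, with 0 counts, in the untreated library.

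Several members have near-identical copies, and how reads with several alignments were counted is not stated. Of the 50-base windows of its GENCODE M21 transcripts, 51.2% of those of Ifit3 also occur in Ifit3b, and 57.6% of those of Oas1a in Oas1g. For Ifi204 14.8% occur in Ifi211, and for Ifit1 7.06% in Ifit1bl2. Summed counts do not depend on how reads are split within a family. They would still change if reads with several alignments were dropped or counted for each copy. The 6 Ifit family genes summed to 680.9 CPM in the Dox library and 106.7 CPM in the untreated library, 6.38-fold higher (6.07 to 6.71). The Oas1 family of 8 genes summed to 206.3 and 63.6 CPM, Dox and untreated, 3.25-fold higher. The 11 genes of the Ifi200 family summed to 1541 CPM in the Dox library and 393.5 CPM in the untreated library, 3.91-fold higher, while their member Ifi204 was lower. The 4 Trim30 genes were 4.43-fold higher as a sum. In an alternative count, 10 members of the Ifit, Oas1, Oasl, Ifi200, Trim30, Ifi27 and Mx families were left out, while Mx2 was kept. Of the remaining 39 members, 32 were Dox-high, against 13.6% of all tested genes, with a median log2 fold of 1.83. Some of the 10, such as Ifit2, Oasl1 and Ifi27, shared no 50-base window with another gene. Ifit1 also overlaps Ifit1bl1 in the annotation, Ifi27 overlaps Ifi27l2a and Eif2ak2 overlaps a pseudogene, and without a stated strand setting reads of overlapping genes cannot be told apart.

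The interferon genes themselves were not detectable beyond a few counts. Of 18 listed interferon genes, 15 had 0 counts in both libraries. Ifna14 had 1 count in the Dox library and 0 in the untreated library, Ifna12 had 0 and 1, and Ifnz had 0 and 4. A count of 0 allows up to 0.183 CPM in the Dox library and 0.176 CPM in the untreated library.

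Of the kinases, STATs and IRFs of the pathway, 11 of 19 tested were Dox-high and 0 Dox-low, against 13.6% and 13.0% of all tested genes. Among the 19, 1 gene passed the level filter through the Dox library alone. Irf9, the DNA-binding subunit of ISGF3, was at 196.9 and 58.5 CPM, and Irf7, which drives type I interferon genes, at 238.1 and 27.6 CPM, Dox and untreated. The receptor kinase Jak1 was 2.45-fold higher, at 1085 CPM in the Dox library and 442.7 CPM in the untreated library, and Jak2 3.33-fold higher. Tyk2 was at 85.2 CPM in the Dox library and 50.7 CPM in the untreated library, below 2-fold. Irf5, with 125 counts in the Dox library and 4 in the untreated library, and Irf8, at 31.0 and 3.92 CPM, are also genes of dendritic cells and macrophages.

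Of 16 adaptors, sensors and kinases upstream of interferon, 1 (Tlr9) passed the level filter through the Dox library alone. Of the 16, with a median log2 fold of 0.23, 4 were Dox-high and 0 Dox-low, against 13.6% and 13.0% of all tested genes. The 4 were Tlr9, an endosomal DNA sensor with 35 counts in the Dox library and 0 in the untreated library, Unc93b1, its trafficking chaperone (log2 fold 2.56), Aim2, an inflammasome DNA sensor (1.59), and the kinase gene Ikbke (1.23). Sting1, the adaptor of cytosolic DNA sensing, was at 150.0 CPM in the Dox library and 82.0 CPM in the untreated library, a log2 fold of 0.87. Rnaseh2a, a subunit of RNase H2, had a log2 fold of -0.95. Of the further interferon-stimulated genes, 39 of 55 tested were Dox-high and 2 Dox-low, with a median of 1.47. Among the 55, 9 passed the level filter through the Dox library alone and 1 (Ifi202b) through the untreated library alone. The copies Ifit3b, Ifit1bl1 and Ifit1bl2 had log2 folds of 4.46, 2.98 and 3.15. Cxcl9, a chemokine gene, had 18 counts in the Dox library and 0 in the untreated library. The 2 Dox-low genes were Ifi202b, with 0 counts in the Dox library and 70 in the untreated library, and Bst1, an ectoenzyme gene, at 1.71 CPM in the Dox library and 15.4 CPM in the untreated library.

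The summed markers of each other cell type listed were also higher in the Dox library, but some sums were carried by few genes. Of the stromal and endothelial markers, 0 of 4 tested were Dox-high and 2 Dox-low, with a median log2 fold of -0.54. Among these 4, 1 passed the level filter through the untreated library alone, so its direction was largely set by the filter. Of all tested genes, 13.6% were Dox-high and 13.0% Dox-low. Fewer cells of a type and less RNA per cell cannot be told apart in bulk samples. Of 20 tested macrophage and monocyte markers, 18 were Dox-high, but 10 of the 20 passed the level filter through the Dox library alone, so the direction of those 10 was largely set by the filter. The 24 listed summed to 458.0 CPM in the Dox library and 112.1 CPM in the untreated library. The most abundant were Itgam, at 181.0 and 60.6 CPM, and Mpeg1, at 96.8 and 1.64 CPM, Dox and untreated; Cd14 and Mertk had 0 counts in the untreated library. Of 11 conventional dendritic cell markers, 6 were tested, the most abundant being Itgax and Flt3. All 6 passed the filter through the Dox library alone, so no count of them is read as a result. The 11 listed summed to 45.4 CPM in the Dox library and 1.93 CPM in the untreated library. Clec9a, Zbtb46, Cd209a, Batf3 and Clec10a were at 0 in the untreated library and Ccl22 was at 0 in both. Of the plasmacytoid dendritic cell list, Siglech and Klk1 had 101 and 44 counts in the Dox library and 0 in the untreated library; 6 of 9 tested genes were Dox-high, 3 of the 9 having passed through the Dox library alone, and the list's sum of 2044 CPM in the Dox library and 637.9 CPM in the untreated library was mostly Ccr9, which T cells also express. Bst2 is on that list as well as a member.

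B-cell and plasma cell markers were Dox-high for 3 of 4 tested genes, of which 2 passed through the Dox library alone, and the 12 listed summed to 980.1 CPM in the Dox library and 391.5 CPM in the untreated library, mostly Ighm and then Sdc1. Pax5 and Ebf1 were at 0 in both libraries, and Ms4a1, Jchain and Fcer2a at 0 in the untreated library. Natural killer markers (2 tested, Prf1 and Klrk1, both passing through the Dox library alone) summed to 6.35 and 0.762 CPM, neutrophil markers (3 of 5 Dox-high, 3 of the 5 passing through the Dox library alone) to 10.9 and 5.21 CPM, and erythroid markers (7 of 7 Dox-high, 3 of them passing through the Dox library alone) to 78.4 and 11.0 CPM, Dox and untreated. The natural killer genes Ncr1, Klrk1, Prf1 and Klra8 and the neutrophil gene Mpo were at 0 in the untreated library, Retnlg in the Dox library and Mmp8 in both. The leading neutrophil genes were S100a9 and Ngp, and the leading erythroid genes Hba-a2 and Hbb-b1. Platelet markers, with Ppbp and Gp1bb at 0 in both libraries and Pf4 and Gp9 in the untreated library, summed to 0.427 CPM in the Dox library and 0.117 CPM in the untreated library. Stromal and endothelial markers summed to 357.3 CPM in the Dox library and 253.7 CPM in the untreated library, mostly Pecam1 and Col1a2. Of the 4 tested, 0 were Dox-high and 2 Dox-low, against 13.6% and 13.0% of all tested genes. Among the 4, 1 passed the level filter through the untreated library alone. Col3a1 was at 0 in both libraries, and Cdh5 and Kdr were at 0 in the untreated library. The part of these cells in the members' difference was not tested.

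**Figure D5:**
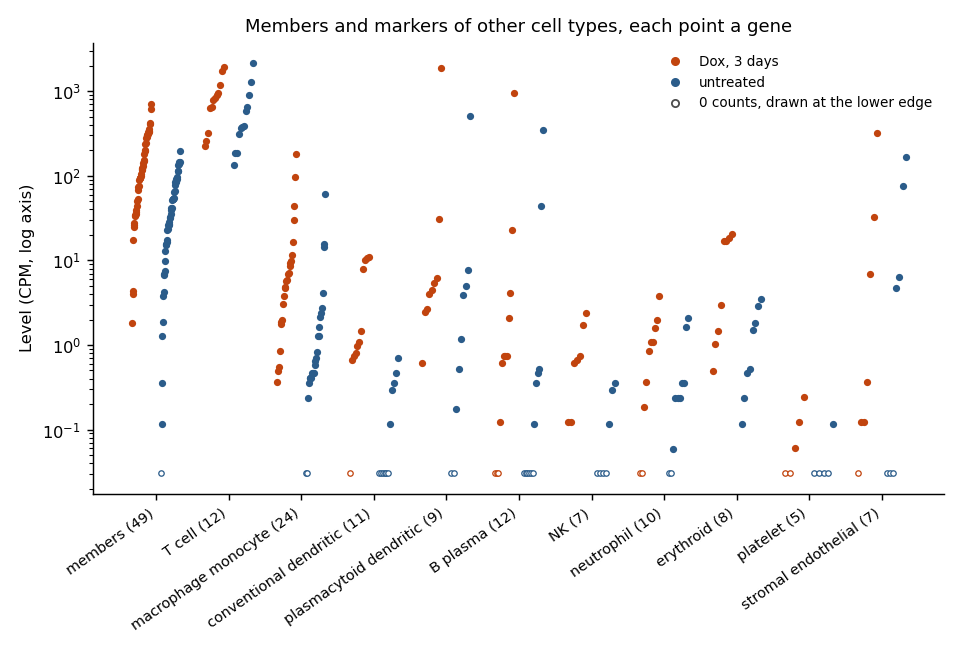
Level of each member and of each marker gene (points; CPM on a log axis) in the Dox library (orange, left of each pair) and the untreated library (blue, right), with the number of genes per list in brackets and open points for 0 counts. The highest points in the Dox library are 713.2 CPM among the members (Epsti1), 1865 CPM for Ccr9, 948.2 CPM for Ighm, 316.8 CPM for Pecam1, 181.0 CPM for Itgam and 10.9 CPM for Itgax in their lists.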

How the data were processed

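RNA sequencing counts of 2 libraries of sorted ALL211 cells were used, 1 from Dox-treated and 1 from untreated recipients. The deposited files hold unnormalized read counts by Entrez gene. The submitters' processing notes name CASAVA 1.8.2, featureCounts and mm10; the sources used here give no aligner, strand setting, multi-mapping rule or annotation. The series table and sample tables held the same counts (0 genes differed), and the deposited gene length column (another kind of value, an annotation) served only for levels per length. RefSeq (GRCm38) gave 25275 of 27179 genes a symbol; the 1904 others stayed in the totals, at 0.977% of counts in the Dox and 1.20% in the untreated library. Counts were scaled with TMM in edgeR 4.0.16 (factors 0.994 Dox, 1.01 untreated; R 4.3.3). Genes with at least 1 CPM in 1 library were compared, and log2 folds have a prior count of 2. No test across genes was made, since each group had 1 library. The calculation was tested on simulated data. Members, lists and alternatives were chosen with earlier results of these data known. All members are named; of each pathway role, up to 6 genes with the largest absolute log2 fold plus Irf7, Irf9, Jak1 and Tyk2; of each marker list, the 2 most abundant genes and those at 0. Some genes of these lists are not reported here. Python 3.11.15 with scipy 1.17.1 was used. Alternatives were other scalings (among them DESeq2 1.42.0 size factors), prior counts, filters, thresholds and totals, and members with most family genes left out. Halved counts were added after the data were seen.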

Additional observations from a re-analysis of the deposited data

How the results depend on the processing

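The counts of 39 Dox-high and 0 Dox-low members were the same with total-count, DESeq2 or upper quartile scaling, with a prior count of 0.5 or 5, with no level filter, and with totals without markers of other cell types. At least 4-fold, the number of members was 25, that of pathway genes 22 (54 at 2-fold) and that of all genes 541 (1644 at 2-fold). With no filter, 2993 of all genes were Dox-high, with at least 5 CPM 1091, and by the interval of halved counts 897. With at least 5 CPM, 1 pathway gene was Dox-low, in place of 2, since fewer genes were tested. The members' median log2 fold ran between 1.83 and 2.04 over the alternatives. Of 294 single-gene values, 293 stayed within their gene's counting interval, Tlr7 with a prior count of 5 (3.95) did not, and 0 crossed 2-fold. Depth limits Tlr3, Tlr7 and Ifi44 most. No paired analysis was possible because each condition had 1 library.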

Other observations

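The Ifi200 genes, a cluster on chromosome 1 whose products bind DNA, differed in direction within the family. Ifi202b had 0 counts in the Dox library and 70 in the untreated library, 22.4-fold lower with 3 counts as the floor of a library in place of 0. The counting interval of its ratio (Dox over untreated) had an upper end of 0.0564. Ifi204 had a log2 fold of -0.66, while Ifi213 (386 counts in the Dox library and 21 in the untreated library), Ifi208 (3219 and 442) and Ifi209 (9077 and 1893) had log2 folds of 4.13, 2.92 and 2.32. Ifi211, in which 14.8% of the 50-base windows of Ifi204 also occur, had 30 counts in the Dox library and 28 in the untreated library. Within the Oas1 family, Oas1b, annotated as a transcribed pseudogene, had a log2 fold of 2.19 and Oas1g 0.44. These genes were picked after their values were seen.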
